A study of Mus musculus with 15 samples.

Results

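A set of 10 genes of dietary fat absorption and chylomicron formation was followed through 15 poly-A RNA-seq libraries of mouse small intestinal organoids. They were taken by symbol from the deposited count tables: Cd36, Fabp1, Fabp2, Mogat2, Dgat1, Mttp, Apob, Apoa1, Apoa4 and Apoc3, which are 10 of 78298 genes listed and 10 of 17560 genes tested. All 10 passed the filter on low counts.

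Small intestinal organoids are cultures grown from intestinal crypts, in which stem cells in buds give rise to absorptive enterocytes and secretory cells. All lines were stably transduced with lentiviruses, and every transgene was driven by the L30 promoter, a weak promoter active in all cell types, so expression was not limited to a lineage. The control, Halo-NLS, expressed V5-Halo with a nuclear localization signal. Its vector carried puromycin selection, as did those of the SOX9 fusions. SOX9-Halo_budding and SOX9-mEGFP_budding expressed SOX9, a transcription factor of crypt cells, fused to the HaloTag or to mEGFP, and had the branched shape of usual organoids. The lines were polyclonal at first, each from many transduced cells. SOX9-Halo_spheroid and SOX9-mEGFP_spheroid came from the same 2 kinds of line later in culture, when the organoids had become round, and carried a second transgene, H2B-mEGFP and H2B-mScarletI respectively. Per the methods, H2B-mEGFP was selected with Zeocin and H2B-mScarletI with Geneticin. Shape, time in culture and the second transgene with its selection therefore differ together between budding and spheroid conditions and cannot be told apart. Each condition had 3 libraries, which the study calls biological replicates, made 5 days after seeding. Per the methods, organoids were taken within 2 passages of the passage stated for their condition. The study describes a stable line for each SOX9 construct, so spread between libraries does not measure spread between independently made lines. The question the design asks is how gene expression changes as organoids that overexpress SOX9 go from the budding to the spheroid shape.

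In the small intestine, fatty acids released from dietary fat enter the enterocyte, helped by surface proteins such as CD36, and are carried in the cytosol by the fatty acid binding proteins FABP1 and FABP2. At the endoplasmic reticulum MOGAT2 joins a fatty acid to monoacylglycerol, and DGAT1 adds another to make triglyceride. MTTP, the microsomal triglyceride transfer protein, then loads triglyceride onto apolipoprotein B, and the particle gains further apolipoproteins, among them APOA1, APOA4 and APOC3, before it leaves the cell as a chylomicron.

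Between 28062722 and 40559766 reads per library were counted on genes (median 33491297), and a further 9.65% to 13.6% of reads lay on several genes and were not counted. Levels are given as CPM, the counts of a gene scaled to a common library total with size factors by TMM, which sets library sizes by the bulk of the genes. A gene was called when edgeR's quasi-likelihood test gave a Benjamini-Hochberg adjusted p of at most 0.01 together with a change of 2-fold or more either way (1 on the log2 scale) and a normalized count averaging 10 or above, which are the study's thresholds. Sox9 itself was at 9.10 to 22.9 CPM in Halo-NLS, 193 to 339 in SOX9-mEGFP_budding, 260 to 705 in SOX9-mEGFP_spheroid and 314 to 442 in SOX9-Halo_spheroid. SOX9-Halo_budding replicate 1, at 39.8 CPM, stood apart from the other 2 libraries of its condition, at 314 and 204 CPM, and no call against SOX9-Halo_spheroid given here was lost without it. The count of Sox9 does not separate the transgene from the endogenous gene. SOX9-mEGFP_budding replicate 3 also stood apart, with the lowest level of its condition for 9 of the 10 genes. Halo-NLS replicate 3 had a count for 40375 genes, against 29003 and 24214 in the other control libraries. Of its reads 5.73% lay on no gene, against 2.93% and 1.83%, and it had the lowest control level for 7 of the 10 genes.

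The genes lie on 7 chromosomes, and 3 of them form a cluster. In GRCm39, with GENCODE M39, Apoa1 (chr9:46139878-46142212, plus strand), Apoc3 (chr9:46142527-46146934, minus strand) and Apoa4 (chr9:46151994-46154757, plus strand) lie within 14880 bases. Fabp1 is at chr6:71176809-71182016, Fabp2 at chr3:122688721-122693155, Mttp at chr3:137795612-137850729, Cd36 at chr5:17986432-18094067, Mogat2 at chr7:98868291-98887830, Apob at chr12:8027648-8066835 and Dgat1 at chr15:76385083-76396476. The counting ignored strand and dropped reads that lay on more than 1 gene, so genes with antisense partners lost reads. Of the exon bases of Apoa4, 69.8% are shared with the antisense genes Gm47528 and Gm10680, of Dgat1 54.6% with Hsf1, of Fabp2 22.9%, of Mttp 12.7% with Gm43691 and Trmt10a, of Mogat2 10.1% and of Apob 0.165%. The levels of these genes are therefore too low by an amount that was not measured. Fabp1, Apoa1, Apoc3 and Cd36 share no exon base with another counted gene.

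The 250 bases before the annotated start of 4 genes are shown because their windows hold no annotated exon. They are written 5′ to 3′ on the strand of the gene. Capitals mark every match, on either strand, to letters bound by factors known in enterocyte promoters (CAAAGNNCA for HNF4, GTTAAT for part of an HNF1 site, TTTATG for CDX and AGATAA for GATA factors), to ACAAAG and AACAAT for SOX factors, or to the TATA box TATAAA.
Fabp1, chr6:71176559-71176808, plus strand: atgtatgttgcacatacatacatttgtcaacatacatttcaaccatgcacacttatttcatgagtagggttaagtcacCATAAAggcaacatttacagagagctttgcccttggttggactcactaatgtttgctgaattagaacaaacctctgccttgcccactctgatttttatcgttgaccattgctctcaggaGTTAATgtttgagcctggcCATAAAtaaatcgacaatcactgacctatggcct
Fabp2, chr3:122688471-122688720, plus strand: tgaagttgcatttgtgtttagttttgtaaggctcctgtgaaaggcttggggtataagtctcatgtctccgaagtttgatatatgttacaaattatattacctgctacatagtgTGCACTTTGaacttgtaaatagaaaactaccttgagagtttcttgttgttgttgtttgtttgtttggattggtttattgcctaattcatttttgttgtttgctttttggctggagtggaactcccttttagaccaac
Apoa1, chr9:46139628-46139877, plus strand: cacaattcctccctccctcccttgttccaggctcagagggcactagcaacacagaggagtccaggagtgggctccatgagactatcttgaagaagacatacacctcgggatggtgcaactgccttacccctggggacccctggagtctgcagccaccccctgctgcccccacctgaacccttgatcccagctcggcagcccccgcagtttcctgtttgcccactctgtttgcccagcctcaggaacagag
Apob, chr12:8027398-8027647, plus strand: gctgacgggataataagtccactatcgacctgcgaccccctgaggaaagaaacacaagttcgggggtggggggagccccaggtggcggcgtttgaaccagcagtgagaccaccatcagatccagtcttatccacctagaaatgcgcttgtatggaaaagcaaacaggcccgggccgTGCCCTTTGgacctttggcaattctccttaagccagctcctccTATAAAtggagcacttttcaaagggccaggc

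The HNF4 letters occurred in the windows of Fabp2, Apob, Apoc3 and Apoa4, which is 4 of the 9 windows searched, against 5.43% of 21723 promoters of protein-coding genes of the same length. In Apob they began 74 bases before the start and the TATA box 31 bases before it. In Fabp2 they began 137 bases before the start. Fabp1 held the HNF1 letters 53 bases and the CDX letters 172 and 34 bases before its start, and Apoa1 none of the 7 motifs. The SOX letters ACAAAG occurred in Apoa4 and Mttp, against 15.9% of promoters, and AACAAT in none of the 9, against 9.69%. In Apoa4 both ACAAAG matches overlapped the HNF4 letters, which hold CAAAG. The TATA box was found in Apob and Apoc3, against 11.9% of promoters, the HNF1 letters in Fabp1 and Apoa4 (6.29%), the CDX letters in Fabp1 (10%), and the GATA letters in Mttp (9.62%). A match of letters is a description and not a bound site.

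All 10 genes were lower in SOX9-Halo_spheroid than in Halo-NLS, and in no case did the libraries of both conditions overlap, where 28.4% of all tested genes were lower without overlap. Together they took 0.674% ± 0.168 (SD, n = 3) of all counts in Halo-NLS, 0.433% ± 0.217 in SOX9-mEGFP_budding, 0.535% ± 0.161 in SOX9-Halo_budding, 0.0727% ± 0.0190 in SOX9-mEGFP_spheroid and 0.00776% ± 0.000911 in SOX9-Halo_spheroid. All 10 were called lower in SOX9-Halo_spheroid against Halo-NLS, where 15.3% of all tested genes were called lower. In SOX9-mEGFP_spheroid 9 of 10 were called lower than in Halo-NLS, where 12.1% of tested genes were, and Apob was the exception. None was called lower by edgeR in either budding condition, against 1.26% of tested genes in SOX9-Halo_budding and 0.763% in SOX9-mEGFP_budding. The median log2 fold change of the 10 genes was -9.77 in SOX9-Halo_spheroid (-9.14 with Cd36 at its bound), -3.12 in SOX9-mEGFP_spheroid, -0.61 in SOX9-Halo_budding and -0.68 in SOX9-mEGFP_budding, beside medians of -0.01, 0.03, 0.01 and 0.03 over all tested genes. These comparisons share the Halo-NLS libraries. RNA of whole organoids was measured, so fewer enterocytes and less RNA per enterocyte cannot be told apart in any result here.

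**Figure D1:**
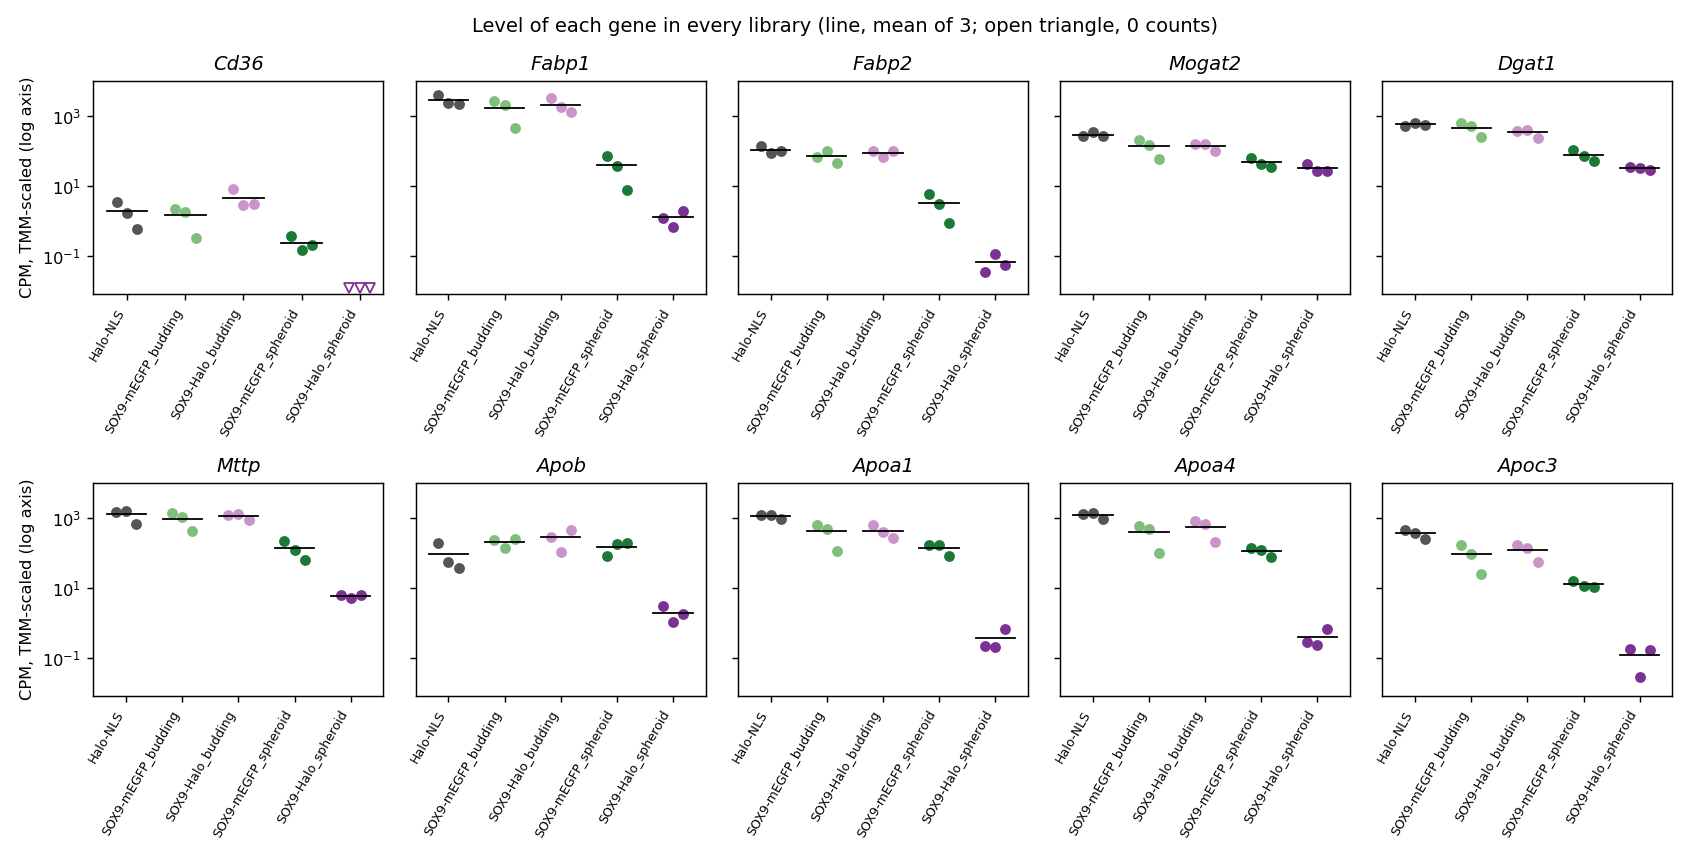
Level of each of the 10 genes in every library, as TMM-scaled CPM on a log axis, for the 5 conditions. Points are libraries, lines are means of 3, and open triangles are libraries with 0 counts. Cd36 was at 0 counts in all 3 SOX9-Halo_spheroid libraries, while Apob in SOX9-mEGFP_spheroid (80.4 to 186 CPM) lay within the range of Halo-NLS (35.9 to 190 CPM).

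The uptake and carrier genes fell in both spheroid conditions. Fabp1, whose product binds fatty acids and bile acids in the cytosol, was at 4071, 2322 and 2208 CPM in the Halo-NLS libraries, 2638, 2072 and 460 in SOX9-mEGFP_budding, 3185, 1791 and 1269 in SOX9-Halo_budding, 72.6, 38.1 and 7.46 in SOX9-mEGFP_spheroid and 1.20, 0.677 and 1.91 in SOX9-Halo_spheroid. Both spheroid conditions lay below all budding and control libraries, and SOX9-Halo_spheroid below SOX9-mEGFP_spheroid. Against Halo-NLS it fell by 11.14 on the log2 scale in SOX9-Halo_spheroid (SE 1.05, adjusted p = 6e-07, edgeR) and fell by 6.19 in SOX9-mEGFP_spheroid (SE 0.85, adjusted p = 3.8e-05). Without SOX9-mEGFP_spheroid replicate 1, whose level was the highest of the 3, the second value was -6.98.

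Fabp2, the other fatty acid binding protein of the small intestine, was at 139, 86.7 and 97.0 CPM in Halo-NLS, 66.7, 99.6 and 44.3 in SOX9-mEGFP_budding, 101, 65.5 and 101 in SOX9-Halo_budding, 5.90, 3.07 and 0.851 in SOX9-mEGFP_spheroid and 0.0353, 0.113 and 0.0537 in SOX9-Halo_spheroid. The last 3 values rest on 1, 4 and 2 counts. It fell by 10.53 on the log2 scale in SOX9-Halo_spheroid (SE 0.78, adjusted p = 6e-08) and fell by 5.03 in SOX9-mEGFP_spheroid (SE 0.56, adjusted p = 5.1e-06), and its budding libraries overlapped the control. Without SOX9-mEGFP_spheroid replicate 1 the second value was -5.78. The ratio of Fabp1 to Fabp2 counts was 26.3 ± 3.25 (SD, n = 3) in Halo-NLS and 11.2 ± 2.07 in SOX9-mEGFP_spheroid, and ran from 10.4 to 39.6 over the 6 budding libraries. In SOX9-Halo_spheroid it was 34, 6 and 35.5, on those few Fabp2 counts.

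Cd36, which encodes a surface receptor for long-chain fatty acids, was scarce throughout. Its counts were 90, 49 and 16 in Halo-NLS, 60, 58 and 14 in SOX9-mEGFP_budding, 339, 99 and 102 in SOX9-Halo_budding, 14, 5 and 7 in SOX9-mEGFP_spheroid and 0 in each SOX9-Halo_spheroid library. With the limit of 3 counts per library that a count of 0 allows, it was at least 21.3-fold lower in SOX9-Halo_spheroid than in Halo-NLS (adjusted p = 0.00028) and at least 51.2-fold lower than in SOX9-Halo_budding (adjusted p = 6.7e-05). The call in SOX9-mEGFP_spheroid against Halo-NLS (log2 fold change -2.97, SE 0.81, adjusted p = 0.0087) was kept in 6 of 12 alternative settings, whose adjusted p ran from 1e-08 to 0.038. It was lost without any 1 of 5 of the 6 libraries compared, all but Halo-NLS replicate 3, with the value at -2.22 without Halo-NLS replicate 1.

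The genes of triglyceride resynthesis had the smallest fitted falls of the 10 in SOX9-Halo_spheroid. Mogat2 was at 262, 342 and 265 CPM in Halo-NLS, 207, 150 and 59.0 in SOX9-mEGFP_budding, 158, 162 and 98.3 in SOX9-Halo_budding, 62.3, 43.6 and 34.5 in SOX9-mEGFP_spheroid and 41.1, 27.4 and 26.5 in SOX9-Halo_spheroid. The 2 spheroid conditions overlapped each other and lay below the control. Against Halo-NLS it fell by 3.19 on the log2 scale in SOX9-Halo_spheroid (SE 0.40, adjusted p = 1.1e-05) and fell by 2.63 in SOX9-mEGFP_spheroid (SE 0.39, adjusted p = 8e-05).

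Dgat1, the enzyme of the last step to triglyceride, was at 523, 647 and 554 CPM in Halo-NLS, 615, 521 and 243 in SOX9-mEGFP_budding, 368, 408 and 237 in SOX9-Halo_budding, 105, 71.0 and 52.6 in SOX9-mEGFP_spheroid and 35.2, 33.2 and 29.3 in SOX9-Halo_spheroid. Every SOX9-Halo_spheroid library was below every SOX9-mEGFP_spheroid library, and both below the control. It fell by 4.14 on the log2 scale in SOX9-Halo_spheroid (SE 0.36, adjusted p = 2.8e-07) and fell by 2.92 in SOX9-mEGFP_spheroid (SE 0.34, adjusted p = 8.8e-06). Dgat1 and Mogat2 made up 11.5% of the counts of the 10 genes in Halo-NLS, 17.3% in SOX9-mEGFP_spheroid and 86.6% in SOX9-Halo_spheroid (means of 3 libraries). Fabp1 alone made up 36.3% in Halo-NLS, 5.01% in SOX9-mEGFP_spheroid and 1.74% in SOX9-Halo_spheroid.

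**Figure D2:**
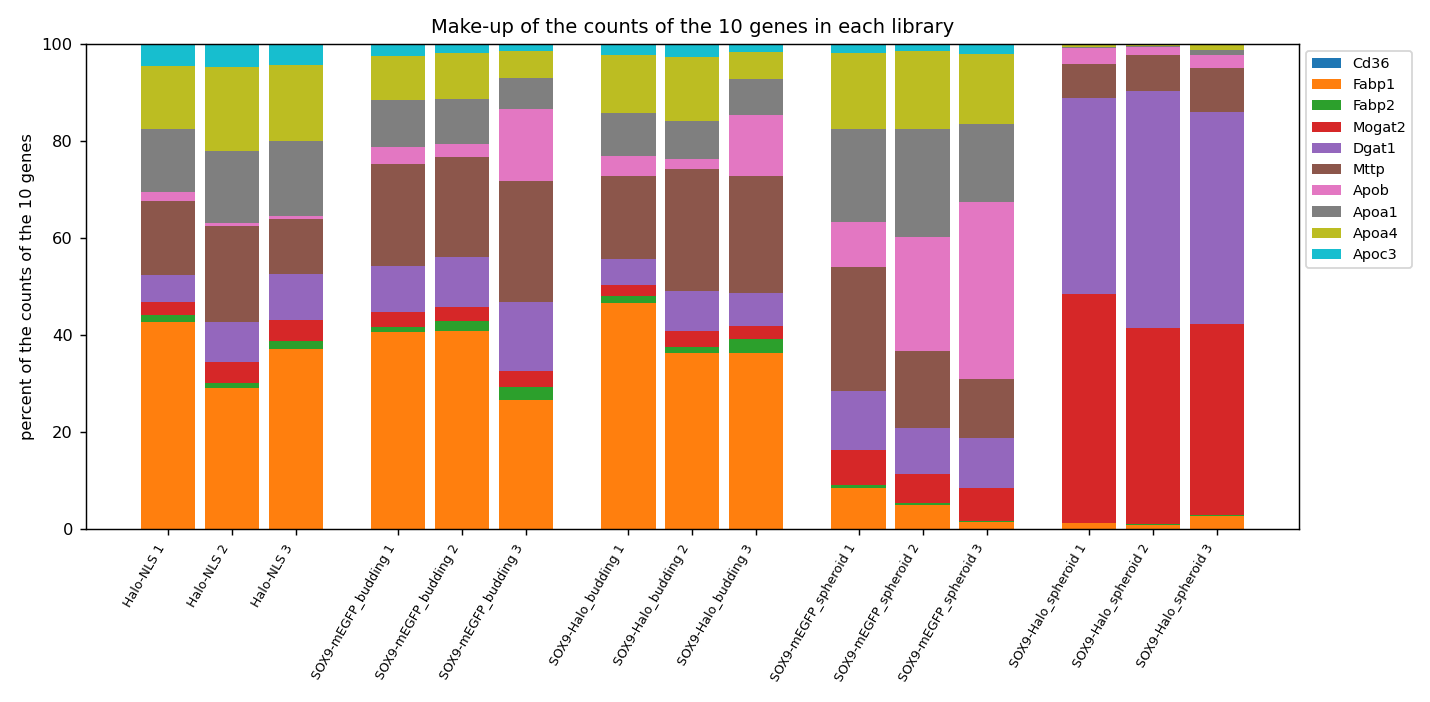
Share of each gene, in percent, in the summed counts of the 10 genes, for every library. Bars are libraries and colours are genes. The control and budding libraries are mostly Fabp1, Mttp, Apoa1 and Apoa4, the SOX9-mEGFP_spheroid libraries hold more Apob (23.2% on average), and Dgat1 and Mogat2 fill 86.6% of the SOX9-Halo_spheroid bars on average.

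The genes of particle assembly parted from each other. Mttp was at 1448, 1584 and 678 CPM in Halo-NLS, 1367, 1036 and 430 in SOX9-mEGFP_budding, 1170, 1240 and 849 in SOX9-Halo_budding, 219.7, 117 and 61.0 in SOX9-mEGFP_spheroid and 6.11, 4.99 and 6.12 in SOX9-Halo_spheroid. The budding conditions overlapped the control, while both spheroid conditions lay below it and apart from each other. Mttp fell by 7.75 on the log2 scale in SOX9-Halo_spheroid (SE 0.60, adjusted p = 9.9e-08) and fell by 3.22 in SOX9-mEGFP_spheroid (SE 0.49, adjusted p = 9.6e-05).

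Apob, the backbone protein of the particle, was at 190, 53.9 and 35.9 CPM in Halo-NLS, 230.3, 137 and 254 in SOX9-mEGFP_budding, 282, 104 and 438 in SOX9-Halo_budding, 80.4, 175.5 and 186 in SOX9-mEGFP_spheroid and 2.97, 1.07 and 1.77 in SOX9-Halo_spheroid. The SOX9-Halo_spheroid libraries stood apart, below those of the other 4 conditions. In SOX9-mEGFP_spheroid its log2 fold change against Halo-NLS was 0.66 (SE 0.60, adjusted p = 0.37), and it was not called in any of 12 alternative settings. In SOX9-Halo_spheroid it fell by 5.60 on the log2 scale (SE 0.74, adjusted p = 1.8e-05). The Halo-NLS level rests on replicate 1, without which the value in SOX9-Halo_spheroid was -4.54 and that in SOX9-mEGFP_spheroid 1.72. In SOX9-mEGFP_budding, SOX9-Halo_budding and SOX9-mEGFP_spheroid, Apob was highest in replicate 3, where 9, 7 and 8 of the 10 genes were at the lowest level of the condition.

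The ratio of Apob to Mttp counts within a library was 0.131, 0.0340 and 0.0529 in Halo-NLS, 0.168, 0.132 and 0.591 in SOX9-mEGFP_budding, 0.241, 0.0839 and 0.516 in SOX9-Halo_budding, 0.366, 1.495 and 3.04 in SOX9-mEGFP_spheroid and 0.486, 0.215 and 0.290 in SOX9-Halo_spheroid. It was above all Halo-NLS values in both spheroid conditions and also in SOX9-mEGFP_budding, where the lowest value, 0.132, was close to the highest control. In SOX9-Halo_budding it was above them at 0.241 and 0.516 but not at 0.0839. The ratio does not depend on the scaling of the libraries.

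The 3 genes of the chromosome 9 cluster were called lower in both spheroid conditions. Apoa1, the main protein of high-density lipoprotein and a chylomicron surface protein, was at 1221, 1181 and 922 CPM in Halo-NLS, 633, 472 and 112 in SOX9-mEGFP_budding, 613.5, 387 and 258 in SOX9-Halo_budding, 165, 165 and 81.3 in SOX9-mEGFP_spheroid and 0.212, 0.197 and 0.671 in SOX9-Halo_spheroid. It fell by 11.54 on the log2 scale in SOX9-Halo_spheroid (SE 0.82, adjusted p = 4e-08) and fell by 3.01 in SOX9-mEGFP_spheroid (SE 0.55, adjusted p = 0.00046). All 6 budding libraries were also below the 3 controls.

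Apoa4, a surface protein secreted with chylomicrons, was at 1238, 1378 and 935 CPM in Halo-NLS, 582, 482.5 and 94.8 in SOX9-mEGFP_budding, 809, 648 and 199 in SOX9-Halo_budding, 135, 118 and 72.9 in SOX9-mEGFP_spheroid and 0.282, 0.226 and 0.671 in SOX9-Halo_spheroid. It fell by 11.52 on the log2 scale in SOX9-Halo_spheroid (SE 0.90, adjusted p = 9.6e-08) and fell by 3.44 in SOX9-mEGFP_spheroid (SE 0.61, adjusted p = 0.00038). Without SOX9-Halo_spheroid replicate 3, which held 25 counts of each of Apoa1 and Apoa4, the falls in SOX9-Halo_spheroid were larger, at -12.40 for Apoa1 and -12.20 for Apoa4. The ratio of Apoa1 to Apoa4 counts stayed between 0.598 and 1.40 over all 15 libraries. In SOX9-Halo_spheroid it rests on few counts, 6, 7 and 25 of Apoa1 and 8, 8 and 25 of Apoa4.

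Apoc3, whose product holds back the clearance of triglyceride-rich particles, was at 438, 376 and 252 CPM in Halo-NLS, 162, 90.5 and 24.7 in SOX9-mEGFP_budding, 161, 134 and 54.7 in SOX9-Halo_budding, 15.8, 11.4 and 10.3 in SOX9-mEGFP_spheroid and 0.177, 0.0282 and 0.161 in SOX9-Halo_spheroid. It fell by 11.50 on the log2 scale in SOX9-Halo_spheroid (SE 0.87, adjusted p = 7.6e-08), where its libraries held 5, 1 and 6 counts, and fell by 4.83 in SOX9-mEGFP_spheroid (SE 0.61, adjusted p = 1.9e-05). The ratio of Apoc3 to Apoa1 counts was 0.317 ± 0.0427 (SD, n = 3) in Halo-NLS and 0.0971 ± 0.0288 in SOX9-mEGFP_spheroid, without overlap of the libraries. In SOX9-Halo_spheroid, where both genes had few counts, it was 0.833, 0.143 and 0.24, on both sides of the control.

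The genes beside the cluster did not show this pattern. Sik3, a kinase gene 4386 bases to its left, differed from Halo-NLS by -0.46 on the log2 scale in SOX9-Halo_spheroid (SE 0.35, adjusted p = 0.3) and by -0.11 in SOX9-mEGFP_spheroid (SE 0.35, adjusted p = 0.8). Zpr1, a zinc finger gene 29605 bases to its right, differed by 0.04 (SE 0.18, adjusted p = 0.89) and by -0.24 (SE 0.18, adjusted p = 0.29). Apoa5, which lies between the cluster and Zpr1 and is chiefly a liver gene, was at 0 to 0.150 CPM in the 15 libraries and was not tested.

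The budding conditions differed less from the control. None of the 10 was called lower or higher by edgeR in either budding condition against Halo-NLS. DESeq2 called 0 in SOX9-Halo_budding and 1, Apoc3, in SOX9-mEGFP_budding. Apoc3 came closest, with a log2 fold change of -1.61 in SOX9-Halo_budding (SE 0.53, adjusted p = 0.048) and -1.94 in SOX9-mEGFP_budding (SE 0.54, adjusted p = 0.03). For Apoa1 the values were -1.40 (SE 0.52, adjusted p = 0.069) and -1.45 (SE 0.52, adjusted p = 0.069), and for Apoa4 -1.10 (SE 0.56, adjusted p = 0.17) and -1.62 (SE 0.57, adjusted p = 0.066). Mogat2 differed by -1.06 in both (SE 0.37, adjusted p = 0.059 and 0.065). The libraries of SOX9-Halo_budding lay below all controls for 5 genes (Apoa1, Apoa4, Apoc3, Mogat2 and Dgat1), where 14.9% of tested genes did, and those of SOX9-mEGFP_budding for the first 4 of these, where 15.4% did. Apob stood on the other side, at 1.56 (SE 0.61, adjusted p = 0.08) and 1.15 (SE 0.60, adjusted p = 0.18). Without Halo-NLS replicate 1 it was called higher in SOX9-Halo_budding, at 2.61 (adjusted p = 0.005, over its 12 alternatives 7.2e-07 to 0.33).

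**Figure D3:**
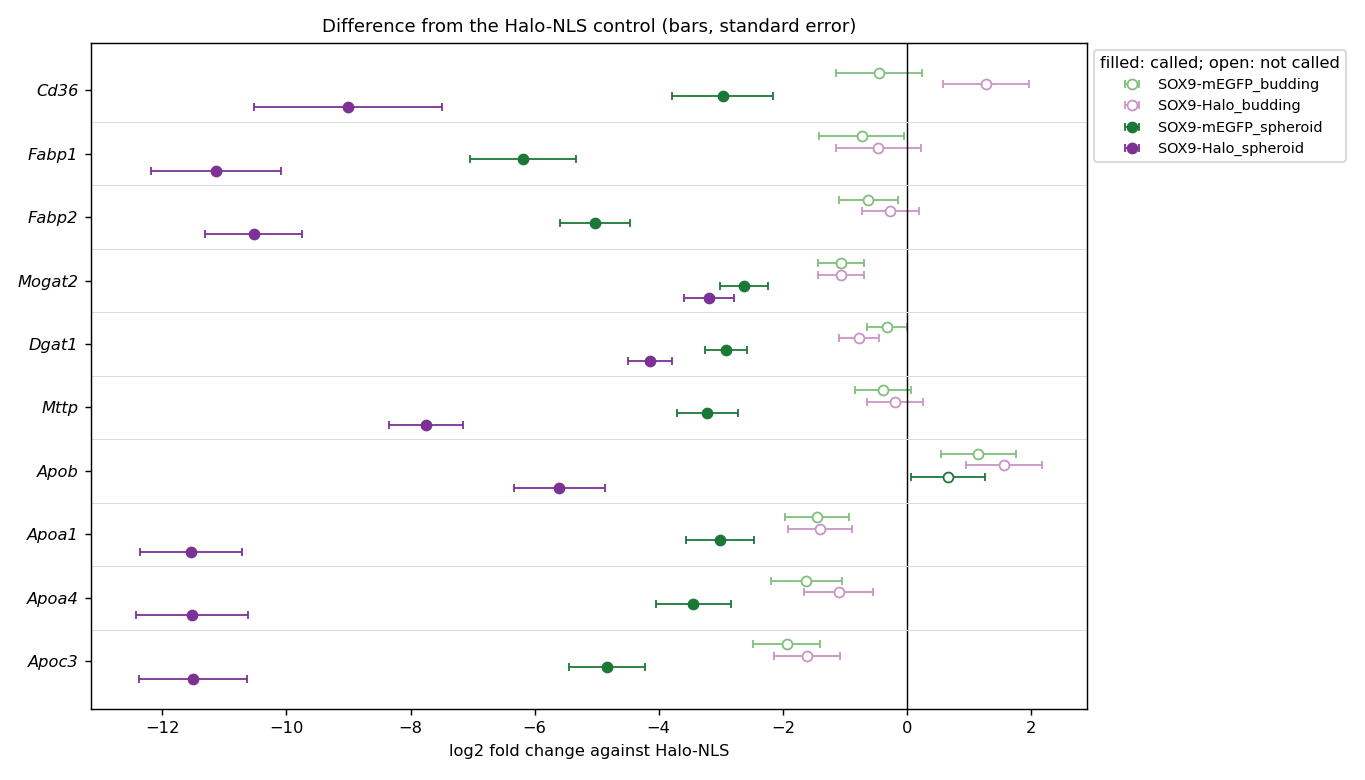
Fitted log2 fold change of each gene against Halo-NLS in the 4 other conditions. Bars are standard errors, and filled points were called. The budding values lie between -1.94 and 1.56 and none is filled, the SOX9-mEGFP_spheroid values are filled except for Apob, and all SOX9-Halo_spheroid values are filled. The Cd36 point of SOX9-Halo_spheroid is a fit to counts of 0 and is not a measured size.

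Spheroids were also set against budding organoids of the same line. All 10 genes were called lower in SOX9-Halo_spheroid than in SOX9-Halo_budding, where 14.7% of tested genes were, with log2 fold changes from -2.14 for Mogat2 (SE 0.38, adjusted p = 0.00035) to -10.68 for Fabp1 (SE 1.03, adjusted p = 8.5e-07), and Cd36 as a bound. Apob fell by 7.16 on the log2 scale (SE 0.79, adjusted p = 3.2e-06). Without SOX9-Halo_spheroid replicate 3 the values of Apoa1 and Apoa4, -10.14 and -10.42, were -11.04 and -11.13, and without replicate 2 that of Fabp2, -10.26, was -10.87. In the SOX9-mEGFP line 6 of 10 were called, where 7.88% of tested genes were. These were Fabp1 at -5.45 (SE 0.82, adjusted p = 0.00013), Fabp2 at -4.42 (SE 0.54, adjusted p = 2.1e-05), Apoc3 at -2.89 (SE 0.56, adjusted p = 0.0011), Mttp at -2.83 (SE 0.48, adjusted p = 0.00037), Dgat1 at -2.59 (SE 0.34, adjusted p = 3.5e-05) and Mogat2 at -1.57 (SE 0.38, adjusted p = 0.0052). Apoa1 differed by -1.56 (SE 0.52, adjusted p = 0.035), Apoa4 by -1.83 (SE 0.58, adjusted p = 0.026), Cd36 by -2.52 (SE 0.81, adjusted p = 0.032) and Apob by -0.49 (SE 0.59, adjusted p = 0.62), and these were not called.

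SOX9-mEGFP_budding replicate 3 bore on this comparison. Without it Apoa1 at -2.06, Apoa4 at -2.34 and Cd36 at -3.06 were called as well, with adjusted p of 0.002, 0.0019 and 0.006 by edgeR, so that 9 of 10 were. Without SOX9-mEGFP_spheroid replicate 1 the values were -6.26 for Fabp1, -5.18 for Fabp2 and -3.43 for Mttp, and without SOX9-mEGFP_budding replicate 1 that of Apoc3 was -2.20, all 4 still called. The call of Mogat2 was lost without SOX9-mEGFP_budding replicate 1 or 2 or SOX9-mEGFP_spheroid replicate 2 or 3, at adjusted p of 0.036, 0.017, 0.024 and 0.029, and with only the libraries compared, at 0.021. Its libraries of both states overlapped.

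**Figure D4:**
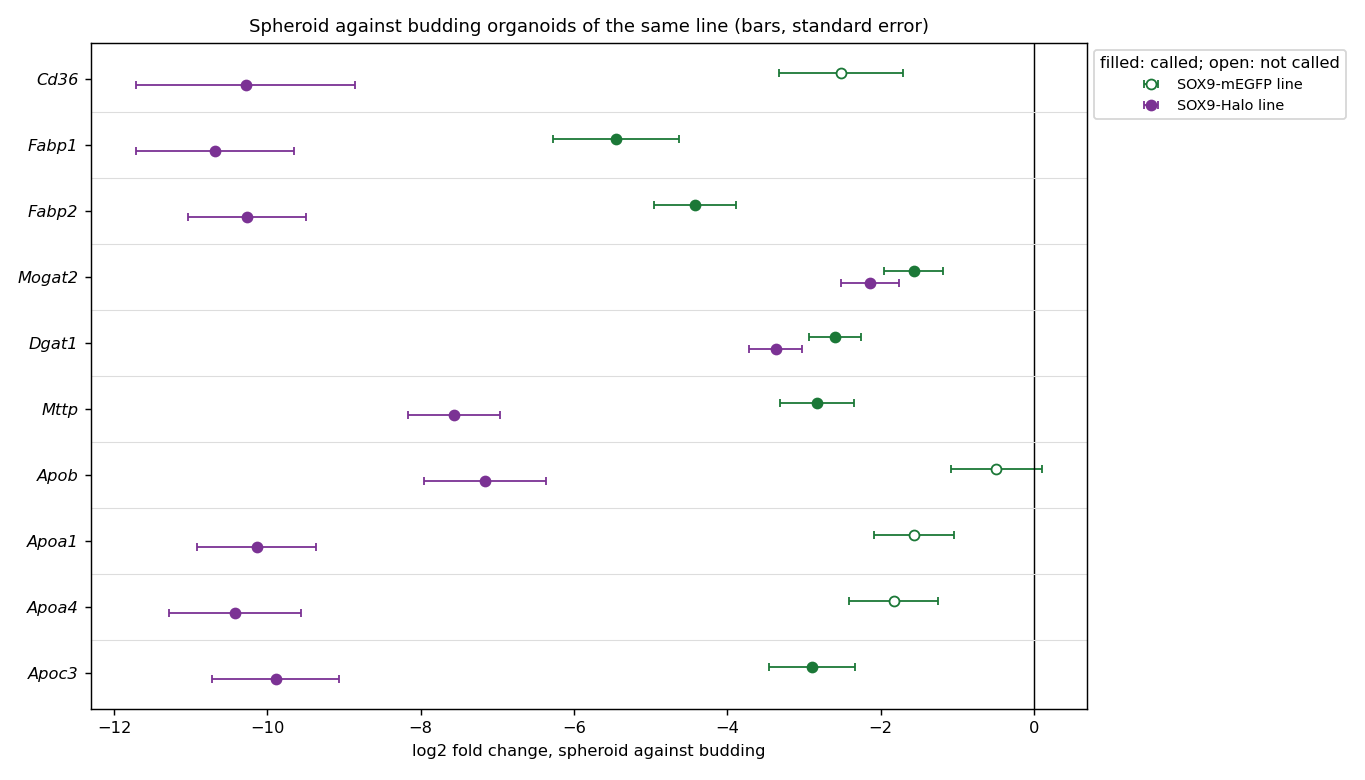
Fitted log2 fold change of each gene in spheroids against budding organoids of the same line, for the SOX9-mEGFP and the SOX9-Halo line. Bars are standard errors, and filled points were called. Mogat2 and Dgat1 lie close together in both lines, and the 2 points of Apob (-0.49 and -7.16), Apoa1 (-1.56 and -10.14) and Apoa4 (-1.83 and -10.42) are far apart.

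The fall differed between the 2 lines for most but not all of the genes. The lines differ in tag, and their spheroids in second transgene and in the drug that selected it. The study also orders SOX9-Halo_spheroid after SOX9-mEGFP_spheroid by time in culture and by degree of spheroid shape. These differences cannot be told apart from one another. The interaction of line and state, which asks whether the change from budding to spheroid was larger in the SOX9-Halo line, was called for 7 of 10 genes, against 5.58% of tested genes called in this direction. The difference was -8.59 on the log2 scale for Apoa4 (SE 0.95, adjusted p = 2.1e-05), -8.57 for Apoa1 (SE 0.87, adjusted p = 9.9e-06), -7.00 for Apoc3 (SE 0.94, adjusted p = 0.00012), -6.66 for Apob (SE 0.93, adjusted p = 0.00017), -5.84 for Fabp2 (SE 0.89, adjusted p = 0.00037), -5.23 for Fabp1 (SE 1.04, adjusted p = 0.0031) and -4.73 for Mttp (SE 0.67, adjusted p = 0.00019). For Dgat1 it was -0.78 (SE 0.45, adjusted p = 0.33) and for Mogat2 -0.57 (SE 0.52, adjusted p = 0.58), which did not pass. Cd36 did not pass either (adjusted p = 0.019) and has no size, since its SOX9-Halo_spheroid counts were 0. Without SOX9-Halo_spheroid replicate 3 the differences were -9.44 for Apoa1 and -9.27 for Apoa4, without SOX9-mEGFP_spheroid replicate 1 they were -4.47 for Fabp1 and -5.13 for Fabp2, and without SOX9-mEGFP_budding replicate 1 that of Apoc3 was -7.68. The call of Fabp1 was lost without SOX9-Halo_spheroid replicate 1 (adjusted p = 0.011) or 2 (adjusted p = 0.013).

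Compared directly, 7 of 10 genes were called lower in SOX9-Halo_spheroid than in SOX9-mEGFP_spheroid, against 9.58% of tested genes. They were Apoa1 at -8.52 (SE 0.74, adjusted p = 9.1e-07), Apoa4 at -8.07 (SE 0.80, adjusted p = 3e-06), Apoc3 at -6.67 (SE 0.78, adjusted p = 1.5e-05), Apob at -6.26 (SE 0.76, adjusted p = 2.1e-05), Fabp2 at -5.50 (SE 0.74, adjusted p = 5.5e-05), Fabp1 at -4.96 (SE 0.82, adjusted p = 0.00038) and Mttp at -4.53 (SE 0.52, adjusted p = 1.3e-05). Without SOX9-Halo_spheroid replicate 3 the values of Apoa1 and Apoa4 were -9.38 and -8.74, and without SOX9-mEGFP_spheroid replicate 1 those of Fabp1 and Fabp2 were -4.18 and -4.77. Dgat1 differed by -1.22 (SE 0.32, adjusted p = 0.011) and was called in 6 of 12 alternative settings (adjusted p from 8.4e-05 to 0.065), among them without SOX9-mEGFP_spheroid replicate 3, at -1.44. Mogat2 differed by -0.56 (SE 0.37, adjusted p = 0.31). Cd36, at 0 counts in SOX9-Halo_spheroid, was at least 2.65-fold lower there and was not called (adjusted p = 0.036), while 3 of 11 alternative settings called it (adjusted p from 1.7e-06 to 0.092). Between the budding conditions of both lines edgeR called none of the 10, where 0.165% of tested genes were called lower, and DESeq2 called 0. Cd36, higher in SOX9-Halo_budding at 2.87 to 8.04 CPM against 0.325 to 2.17, had the only unadjusted p under 0.05 (log2 fold change 1.72, SE 0.70, adjusted p = 0.47).

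Compared per kilobase of exon, which allows levels of different genes to be ranked, Fabp1 led in Halo-NLS at 4254 ± 1549 CPM per kilobase (SD, n = 3). Apoa4 (652 ± 125) and Apoa1 (649 ± 95) came next and overlapped. Mttp (175 ± 69), Mogat2 (157.5 ± 24.4), Dgat1 (126 ± 14.2), Apoc3 (112.5 ± 30) and Fabp2 (112 ± 29) followed, where each overlapped the next except Mogat2 and Dgat1, and Apob (6.69 ± 6.04) and Cd36 (0.153 ± 0.116) were lowest. In SOX9-mEGFP_spheroid Apoa1 led at 80.3 ± 28.3, and Apoa4 (59.9 ± 17.7) and Fabp1 (58.5 ± 48.4) overlapped it. Apob, at 10.6 ± 4.17, did not overlap Apoc3 (3.96 ± 0.934) there, but overlapped Fabp2 (3.39 ± 2.62). In SOX9-Halo_spheroid Mogat2 led at 17.2 ± 4.46, above Dgat1 (7.16 ± 0.659) and Fabp1 (1.87 ± 0.914), with no overlap between these 3. With the longest transcript in place of all exons, Dgat1 ranked above Mogat2 in Halo-NLS. Values for Apoa4 and Dgat1 are low by the reads lost to their antisense partners.

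Other genes of the pathway were taken from 8 lists, and their log2 fold changes against Halo-NLS are given for SOX9-Halo_spheroid first and SOX9-mEGFP_spheroid second. Beside the counts of every list, 15.3% and 12.1% of all tested genes were called lower in these comparisons, and 13.6% and 15.3% higher. In the list of uptake and activation partners, with 11 of 12 genes tested, 4 were called lower and 3 higher in SOX9-Halo_spheroid against Halo-NLS, and 4 lower and 2 higher in SOX9-mEGFP_spheroid, with medians of -0.53 and 0.17. Acsl5, an acyl-CoA synthetase and the gene of this list with the highest mean count, was at -0.53 and -0.67 and not called. Dbi, the acyl-CoA binding protein, fell by 1.56 and fell by 1.06 on the log2 scale, and Slc27a4, a fatty acid transport protein, fell by 1.39 and fell by 1.41. Acsl4, an acyl-CoA synthetase that prefers arachidonic acid, rose by 3.17 and 3.39, and Acbd3, a Golgi protein with an acyl-CoA binding domain, by 1.19 and 1.47. Slc27a1 rose by 1.23 in SOX9-Halo_spheroid and was at 0.95, not called, in SOX9-mEGFP_spheroid. Slc27a2, a very long-chain acyl-CoA synthetase named after its values were seen, fell by 10.43 and fell by 5.75.

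Of 11 tested partners of glyceride synthesis, 5 and 4 were called lower and 0 higher in SOX9-Halo_spheroid and SOX9-mEGFP_spheroid (medians -0.89 and -0.59). Agpat3 fell by 2.01 and fell by 2.18 and Dgat2, the other enzyme of the last step, fell by 2.07 and fell by 2.05 on the log2 scale. Lpcat3, which builds phospholipids with polyunsaturated chains, fell by 1.28 in SOX9-mEGFP_spheroid and was at -0.89, not called, in SOX9-Halo_spheroid. Of 20 tested partners of chylomicron assembly and export, 7 and 4 were called lower and 0 and 1 higher (medians -0.54 and -0.31). P4hb, the small subunit of the MTTP complex and also a general folding enzyme, was at -0.94 and -0.56 and not called. Surf4, a cargo receptor, fell by 1.02 in SOX9-Halo_spheroid and was at -0.80 in SOX9-mEGFP_spheroid. Mia3, a cargo receptor of large particles, rose by 1.49 in SOX9-mEGFP_spheroid and was at 0.62 in SOX9-Halo_spheroid.

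In that list 3 genes fell more than the rest in SOX9-Halo_spheroid, and are named after their values were seen: Pla2g12b, a protein of lipoprotein lipid loading, at -9.22, A1cf, the cofactor of the enzyme that edits Apob mRNA, at -8.66, and Tm6sf2, a factor of lipoprotein loading, at -8.30. In SOX9-mEGFP_spheroid they were at -2.46, -2.42 and -2.94, and all 3 were called in both. The SOX9-Halo_spheroid sizes of Pla2g12b and A1cf rest on few counts, 3, 1 and 4 for Pla2g12b and 0, 0 and 5 for A1cf. The COPII coat genes Sec24c and Sec23b, also chosen after their values were seen, were not called: Sec24c was at -0.02 and -0.01 and Sec23b at -0.03 and 0.22.

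Of 7 tested genes of sterol absorption, 5 and 3 were called lower and 0 and 1 higher (medians -7.94, or -5.57 with genes at their bounds, and -1.59). Npc1l1, the cholesterol uptake protein, fell by 9.38 in SOX9-Halo_spheroid and was at -1.59, not called, in SOX9-mEGFP_spheroid. Abcg5 and Abcg8, the pair that exports sterols to the lumen, named after their values were seen, fell by 11.28 and fell by 10.80 in SOX9-Halo_spheroid and fell by 4.35 and fell by 4.80 in SOX9-mEGFP_spheroid. Soat1, a cholesterol-esterifying enzyme, rose by 1.29 in SOX9-mEGFP_spheroid and was at 0.27 in SOX9-Halo_spheroid. Of 6 tested other apolipoproteins, 3 and 1 were called lower and 0 and 1 higher (medians -1.86 and -0.59). Apoe was at 0.03 and -0.77, not called, and Apoa2 fell by 2.53 and fell by 3.41. Apoc1, a small apolipoprotein, was the one called higher in SOX9-mEGFP_spheroid, with 104, 89 and 74 counts there against 1, 0 and 3 in Halo-NLS.

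Of 12 tested lipid droplet and lipolysis genes, 6 and 5 were called lower and 2 and 1 higher (medians -1.96, or -1.70 with genes at their bounds, and -0.94). Plin3, a droplet coat protein, was at -0.88, not called, and fell by 1.10, Plin2 was at -0.04, not called, and fell by 1.5, and Pnpla2, a triglyceride lipase, was at -0.26 and -0.30, not called. Cidea, a droplet fusion protein, rose by 4.80 and 7.48, from 0.15 to 0.195 CPM in Halo-NLS (4 or 5 counts) to 2.47 to 8.65 in SOX9-Halo_spheroid and 26.9 to 39.2 in SOX9-mEGFP_spheroid, and was also called higher in SOX9-Halo_budding, at 4.48, and SOX9-mEGFP_budding, at 4.36. Abhd5, an activator of lipolysis, rose by 1.30 in SOX9-Halo_spheroid. Of the other fatty acid binding proteins 2 were tested, of 9 listed: Rbp2, the retinol carrier of enterocytes, fell by 10.56 and fell by 3.47, and Fabp5, the epidermal form, rose by 2.90 and 1.93.

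Of 17 tested regulators of enterocyte lipid genes, 10 and 8 were called lower and 2 and 2 higher (medians -3.31 and -1.36). Hnf4a, a nuclear receptor of enterocyte genes, fell by 4.61 and fell by 1.36, and Cdx2, a factor of intestinal identity, fell by 7.35 and fell by 2.51. Gata4, a factor of proximal intestine, was at -0.73, not called, in SOX9-Halo_spheroid and fell by 1.63 in SOX9-mEGFP_spheroid. Hnf4g, a paralog of Hnf4a named after its values were seen, was called lower in both, with 2, 0 and 1 counts in SOX9-Halo_spheroid against 7493, 3790 and 1293 in Halo-NLS, and with a log2 fold change of -3.09 in SOX9-mEGFP_spheroid. Ppargc1a, a coactivator, rose by 3.60 and 3.83, and Prdm1, a repressor known from fetal gut, rose by 2.43 and 2.90. In the budding conditions 0 regulators were called lower by edgeR, and 2 in SOX9-Halo_budding and 1 in SOX9-mEGFP_budding higher, Ppargc1a at 3.31 and 3.86 in both and Maf, named after its values were seen, at 1.54 in SOX9-Halo_budding. Of all tested genes, 1.26% in SOX9-Halo_budding and 0.763% in SOX9-mEGFP_budding were called lower, and 2.49% and 1.99% higher.

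**Figure D5:**
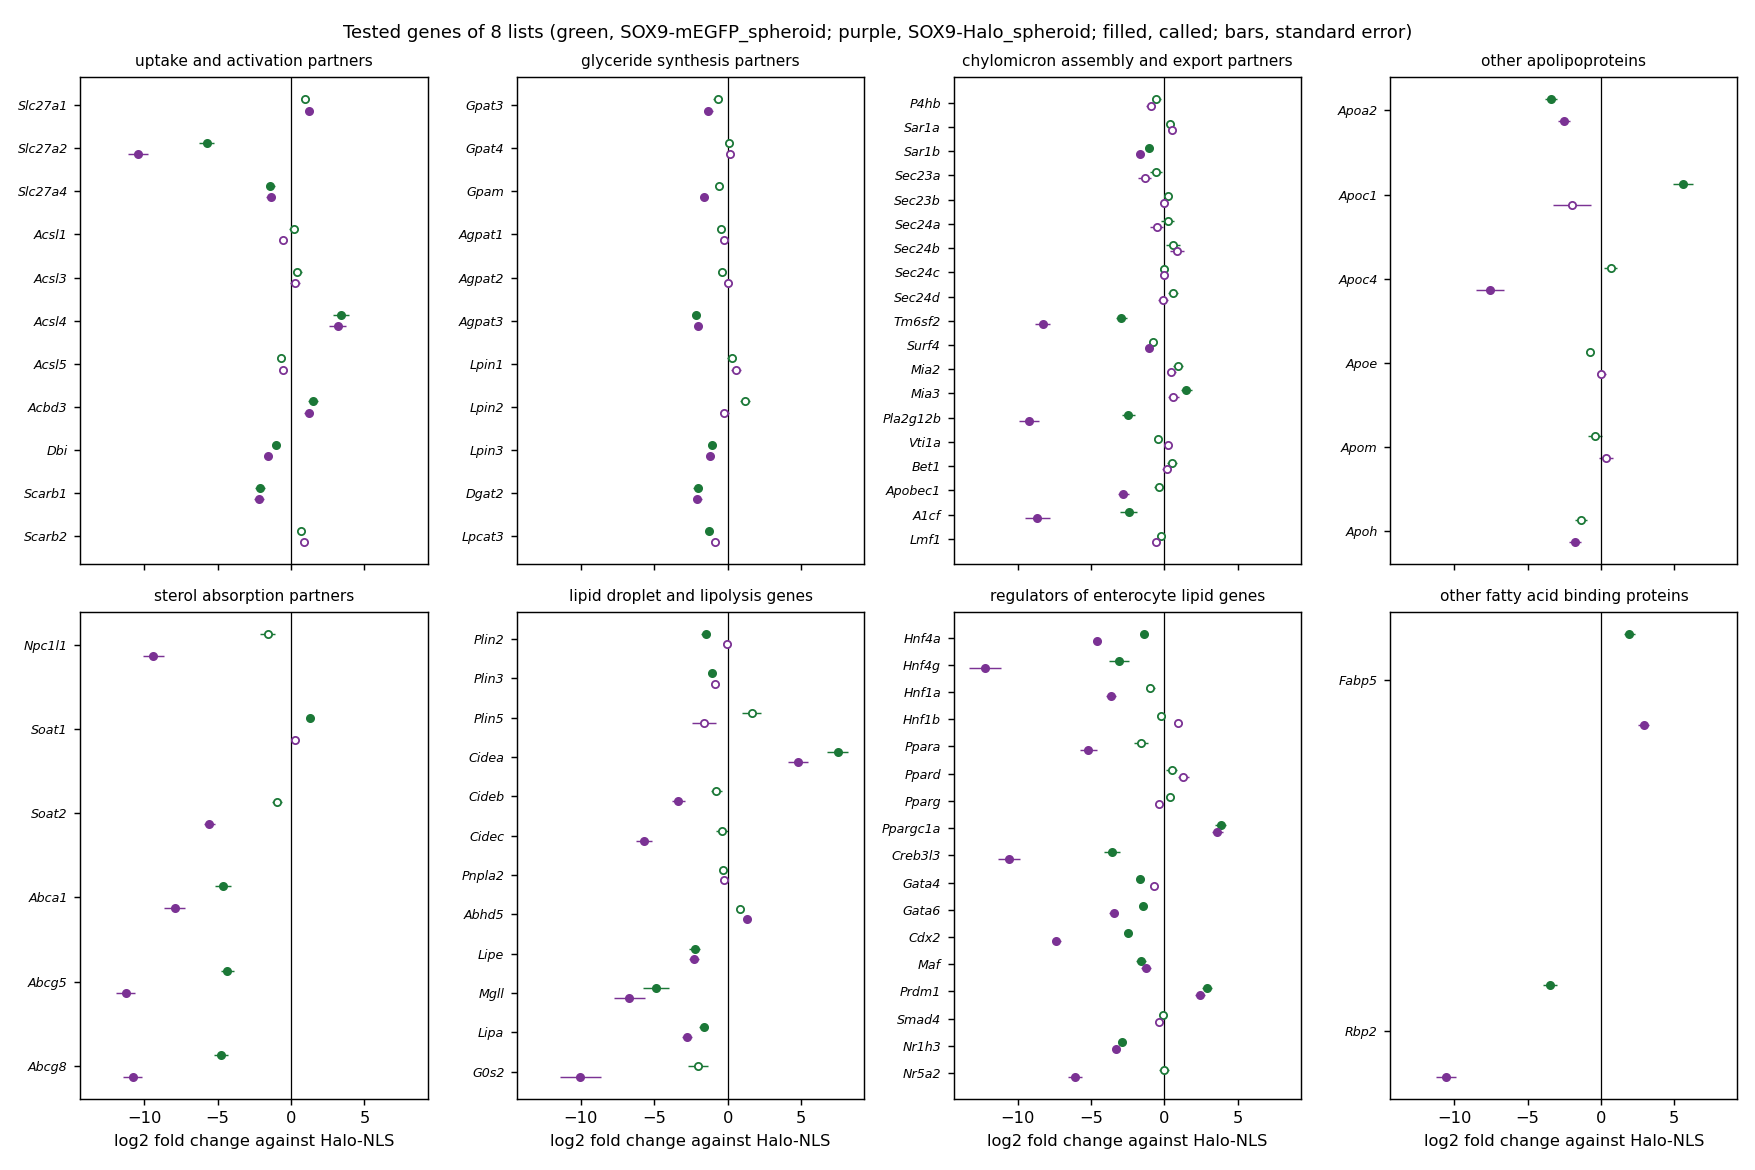
Fitted log2 fold change against Halo-NLS of tested genes in 8 lists, without 2 that entered the counts and medians, for SOX9-mEGFP_spheroid (green) and SOX9-Halo_spheroid (purple). Bars are standard errors, and filled points were called. Export coat genes such as Sec24c lie near 0 in both, whereas Pla2g12b, A1cf, Tm6sf2, Npc1l1 and Rbp2 are between -8.30 and -10.56 in SOX9-Halo_spheroid. Pla2g12b and A1cf had at most 5 counts per library there.

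Over the 15 libraries, the gene whose log2 CPM followed each member most closely was Smlr1 for Fabp1 (Pearson r = 0.997), Ms4a12 for Fabp2 (0.996), Tmem253 for both Apoa1 (0.996) and Apoa4 (0.995), Guca2b for Apoc3 (0.994), Btnl6 for Mttp (0.997), Adh4 for Cd36 (0.985), Tkfc for Dgat1 (0.994), Mgst3 for Mogat2 (0.986) and Nr5a2 for Apob (0.979). These values describe 15 libraries in 5 conditions and mostly carry the differences between the conditions. Nr5a2, a nuclear receptor, was near the control in SOX9-mEGFP_spheroid, at -0.01 (adjusted p = 0.99), and fell by 6.07 in SOX9-Halo_spheroid. Of the 10 genes Apob was least like the rest, with r from 0.509 with Mogat2 and 0.657 with Dgat1 to 0.849 with Apoa4 and 0.867 with Apoa1, and 0.760 with Fabp1, while the other 8 had r from 0.913 to 0.990 with Fabp1.

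Some markers of the cell types the organoids could hold moved with these results and others did not. The part of these cell types in the results was not tested. The summed level of 10 enterocyte markers was 12410 to 22900 CPM in Halo-NLS, 4934 to 17400 in SOX9-mEGFP_budding, 9134 to 17700 in SOX9-Halo_budding, 1355 to 1909 in SOX9-mEGFP_spheroid and 727 to 817 in SOX9-Halo_spheroid, where Anpep made up 596 to 705 and Vil1 96.7 to 138. Anpep was at 342.5 to 813 CPM in Halo-NLS. Against Halo-NLS, 9 of the 10 markers were called lower in SOX9-Halo_spheroid (median log2 fold change -9.79), where 15.3% of tested genes were. In SOX9-mEGFP_spheroid 7 were called lower (median -3.86), against 12.1% of tested genes. All 10 markers had more than 3 counts in a library of every condition. In SOX9-Halo_spheroid the other differentiated lineages were low as well. The Paneth cell sum (6 markers) was 3.27 to 5.89 CPM there and 681 to 1941 in the other conditions, the goblet cell sum (6, with Zg16 at 0) 16.6 to 22.5 against 1603 to 9198, and the enteroendocrine sum (6, with Sct at 0) 0.226 to 0.510. In SOX9-mEGFP_spheroid, the goblet sum was 2249 to 3567 and the enteroendocrine sum 1.08 to 3.49 (Gcg at 0), against 213 to 1039 in control and budding organoids.

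The Paneth sum of SOX9-mEGFP_spheroid, 1119 to 1357 CPM, was nearly all Mmp7, at 1106 to 1327 against 11.1 to 17.0 in Halo-NLS, while the other 5 Paneth markers were called lower there. The crypt base stem cell sum (5 markers) was 181 to 493 CPM in Halo-NLS, 176 to 1049 in the budding conditions, 89.1 to 146 in SOX9-mEGFP_spheroid and 97.7 to 149 in SOX9-Halo_spheroid. Its members differed, with Smoc2 at 102 to 280 CPM in Halo-NLS, 0.766 to 9.44 in SOX9-mEGFP_spheroid and 6.95 to 12.3 in SOX9-Halo_spheroid, Lgr5 at 11.1 to 12.3, 35.9 to 65.2 and 7.10 to 11.5, and Axin2 at 34.0 to 64.3, 42.9 to 69.3 and 77.1 to 118. In the same order Olfm4 was at 14.4 to 111, 1.65 to 3.76 and 0.106 to 0.295, and Ascl2 at 6.19 to 25.7, 4.95 to 9.05 and 5.72 to 6.87. The tuft cell sum (5) was 2.09 to 18.6 CPM and the proliferation sum (5) 298 to 947 over all libraries. Several of the 10 genes are also liver genes. Of 6 hepatocyte markers Cps1, also an enterocyte gene, carried most of the sum in control and budding libraries, and was at 314 to 971 CPM in Halo-NLS, 1217 to 1997 in the budding conditions, 28.2 to 231 in SOX9-mEGFP_spheroid and 0.254 to 2.52 in SOX9-Halo_spheroid, while Alb was at most 0.972 CPM, Serpina1c at most 0.261, Fgb at most 0.0375 and Apoh at most 1.21. Ttr, the transthyretin gene, was at 19.7 to 49.7 CPM in Halo-NLS, 22.5 to 34.2 in the budding conditions, 29.2 to 43.3 in SOX9-mEGFP_spheroid and 0.805 to 2.44 in SOX9-Halo_spheroid. Cd36 and some apolipoproteins are also known from endothelium, macrophages and fat. Endothelial markers (6) summed to at most 1.57 CPM, and Adipoq was at 0 in every library, with Lep and Plin1 at most 0.150. Macrophage and leukocyte markers (6) summed to 5.10 to 10.1 CPM in control and budding libraries, 40.6 to 49.4 in SOX9-mEGFP_spheroid and 15.5 to 27.8 in SOX9-Halo_spheroid, of which Cd14 made up 34.1 to 38.1 and 12.3 to 19.6, with Ptprc at most 0.637. Csf1r was at 0.342 to 0.974 CPM in Halo-NLS, 2.04 to 5.34 in SOX9-mEGFP_spheroid and 0.0706 to 0.295 in SOX9-Halo_spheroid. Cd68 was at 0.616 to 1.01, 3.57 to 5.73 and 2.98 to 8.05, and Itgam, the other way, at 0.824 to 1.48, 0.199 to 0.793 and 0 to 0.0282. Of 4 tested, 3 were called higher in SOX9-mEGFP_spheroid (15.3% of tested genes), and 2 higher and 1 lower in SOX9-Halo_spheroid (13.6% and 15.3%). Fibroblast and smooth muscle markers (6) summed to at most 2.29 CPM, and the 6 adipocyte markers, of which Lipe and Cidec carried the sum, to 8.60 to 84.6.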

How the data were processed

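Poly-A RNA of small intestinal organoids was measured in 5 conditions with 3 libraries each, which the labels number as replicates. Per the methods, the authors trimmed adapters with cutadapt 4.5, kept unique STAR alignments to GRCm39, and counted reads per gene with HTSeq 2.0.2 without regard to strand. The deposited values are raw counts per gene, and the annotation version is not given in the sources used here. Of 78298 gene identifiers listed, 78168 are in GENCODE M39, whose positions and exons were used. Per library 1.83% to 6.09% of reads lay on no gene and were left out. Deposited tables of normalized counts and of the authors' own comparisons (fold changes and p-values) were not used.

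All 15 libraries were fitted together with edgeR 4.0.16 (quasi-likelihood test, TMM scaling, filterByExpr, 1 coefficient per condition) in R 4.3.3, which left 17560 genes, and p-values were Benjamini-Hochberg adjusted over these. The common biological coefficient of variation was 0.302. Limits from a count of 0 used 3 counts per library and cover counting error only. The fit was tested on simulated data. The 10 genes, the gene lists and the markers were chosen with earlier results of these data known. The text names from each list, by rule, the 3 genes with the highest mean count and any gene called against the list's majority, for each of the 10 genes the tested gene with the highest Pearson r, and the neighbours of the chromosome 9 cluster. Genes named outside this rule are marked. Of the genes named by the rule 2, and 1 of the 10 promoter windows, are not reported here.

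Same-numbered SOX9-Halo_budding and SOX9-Halo_spheroid libraries deviated together (r = 0.403, 0.234 and 0.344 over 11054 genes), and no other pair of conditions had all 3 correlations over 0.1. Single libraries of other pairs were more alike. Halo-NLS and SOX9-Halo_budding had r of 0.47, 0.817 and -0.0545, and SOX9-mEGFP_budding and SOX9-Halo_budding 0.0402, 0.358 and 0.74. The source of these likenesses is not given in the labels. Alternatives were RLE scaling, library sizes alone, no filter, a replicate block, only the libraries compared, each replicate left out, and DESeq2 1.42.0. A block with only the libraries of the SOX9-Halo line was added after seeing the data.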

Additional observations from a re-analysis of the deposited data

Results flagged for a closer look

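For 7 genes the change from budding to spheroid organoids differed between the SOX9-Halo and the SOX9-mEGFP line by edgeR's test of the interaction, in each case with the larger fall in the SOX9-Halo line, against 5.58% of tested genes called in this direction. The difference was -8.59 on the log2 scale for Apoa4, -8.57 for Apoa1, -7.00 for Apoc3, -6.66 for Apob, -5.84 for Fabp2, -5.23 for Fabp1 and -4.73 for Mttp. The call of Fabp1 was lost without SOX9-Halo_spheroid replicate 1 or 2, at adjusted p of 0.011 and 0.013. Line, tag, second transgene with its selection and time in culture of the spheroids cannot be told apart in these differences.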

How the results depend on the processing

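Every count of called genes in the spheroid comparisons stayed within 1.5 times its value in each alternative run. In the budding comparisons with Halo-NLS, where 0 genes were called, the count called lower was 4 in each without the filter on low counts, 1 in each with the replicate block (Apoc3), 1 in each at an adjusted p of 0.05 with no fold threshold, and 1 by DESeq2 in SOX9-mEGFP_budding. The count called higher was 1 in each without the filter and, leaving out libraries, 0 to 1 in SOX9-Halo_budding. Between the budding conditions it was 1 without the filter. The replicate block changed no call from called to not called.

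Signs turned only for values that were not called. Against Halo-NLS in SOX9-Halo_budding, Fabp2 was 0.03 and Mttp 0.10 with library sizes alone, and Mttp ran from -0.48 to 0.04 on leaving out libraries. Cd36 in SOX9-mEGFP_budding ran from -0.88 to 0.30. Between the budding conditions the ranges were -0.20 to 0.71 for Fabp1, -0.42 to 0.52 for Apoa1, -0.10 to 0.80 for Apob, -0.14 to 1.01 for Apoc3, -0.17 to 0.57 for Mttp and -0.38 to 0.41 for Mogat2, and Mogat2 was -0.00 with RLE scaling and -0.01 by DESeq2.

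With library sizes alone the median log2 fold change of all genes was 0.27 to 0.31 in comparisons with Halo-NLS, in place of -0.01 to 0.03, and the split of lower and higher calls went from 2682 and 2392 to 2229 and 3102 in SOX9-Halo_spheroid, from 2133 and 2690 to 1500 and 3333 in SOX9-mEGFP_spheroid, from 221 and 438 to 109 and 1068 in SOX9-Halo_budding and from 134 and 350 to 108 and 620 in SOX9-mEGFP_budding. Depth limits Cd36, Fabp2 and Apoc3 in SOX9-Halo_spheroid, which had 0 to 6 counts per library. Apoa1 and Apoa4 had 6 to 25 counts per library there.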
